A study of Mus musculus with 16 samples.

Results

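To ask how the RNAs that encode the mitochondrial respiratory chain behave when Sox2 is immunoprecipitated (IP) from mouse embryonic stem cells (mESC), the nuclear genes for its subunits were followed through 16 libraries. The genes were chosen by gene type and symbol and by no measured value. They are the protein-coding genes whose symbol starts with Ndufa, Ndufb, Ndufc, Ndufs, Ndufv, Uqcr, Atp5 or Cox4 to Cox8, together with Sdha, Sdhb, Sdhc, Sdhd and Cyc1. This gave 94 of the 53379 genes in the deposited counts, of which by symbol 38 count to complex I (Ndufa4, now assigned to complex IV, among them), 4 to complex II, 9 to complex III, 18 to complex IV and 17 to complex V, and 8 are the complex I assembly factors Ndufaf1 to Ndufaf8.

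The respiratory chain sits in the inner mitochondrial membrane. Complex I (NADH dehydrogenase) and complex II (succinate dehydrogenase) feed electrons to coenzyme Q, complex III passes them on to cytochrome c, complex IV (cytochrome c oxidase) hands them to oxygen, and complex V (ATP synthase) uses the resulting proton gradient to make ATP. Most subunits are encoded in the nucleus, translated in the cytosol and imported, while a small set of membrane subunits is encoded by mitochondrial DNA. Naive mESC draw on both respiration and glycolysis for ATP.

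All libraries came from male mESC with no labelled genetic change, kept on gelatin in serum-containing medium with LIF at 1000 U/mL and the MEK and GSK3 inhibitors PD0325901 (1 µM) and CHIR99021 (3 µM). The cells were crosslinked with UV light, which joins RNA to protein in direct contact (UV-RIP), or with formaldehyde, which also joins protein to protein (fRIP). For each crosslinker 4 plates, numbered 3 to 6, gave 1 Sox2 IP library and 1 input library each from the same lysate, and no IP with a control antibody was analysed here. Since each plate had 1 crosslinker, the crosslinker and the plates cannot be told apart. The deposited values are counts of unique molecular identifiers (UMIs), each standing for 1 original RNA fragment, over whole gene bodies with introns. Library totals were 12456298 to 13828610 UMIs in the UV-RIP inputs, 14218784 to 17281596 in the UV-RIP IPs, 13627606 to 15381686 in the fRIP inputs and 17728081 to 21211537 in the fRIP IPs. Values are given as CPM, UMIs scaled by the total of the library, in the order of plates 3, 4, 5 and 6, and a fold change is IP over input on the log2 scale. A gene was called depleted, or enriched, when it changed by more than 1.5-fold with an adjusted p below 0.05 in the quasi-likelihood test of edgeR, adjusted by the Benjamini-Hochberg method over 22936 genes, and lower, or higher, when the adjusted p passed at any fold, so that depleted genes count among the lower ones.

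Features of the libraries as a whole bear on these values. The RNA Gm26917 took 18.4% to 22.3% of the UMIs in the UV-RIP IPs and 12.03% to 12.29% in their inputs, and the median of all genes tested was -0.17 in UV-RIP and -0.03 in fRIP. With TMM scaling in place of total UMIs the UV-RIP median became 0.01, and medians of the respiratory chain genes are also given relative to that of all genes. The input of fRIP plate 4 stood apart, with 2.13% of its UMIs on cytosolic ribosomal protein genes against 1.19% to 1.44% in the other fRIP inputs. For named respiratory chain genes, fRIP results are also given without this plate where a call or a rank changes. Of 10 genes that mark naive mESC, 9 had 552 or more UMIs in every library. The exception was Sox2 itself, which was at 0 in all 16 libraries and whose gene body is 100% covered by another gene model. All 7 fibroblast and feeder markers together made up 0.0002% to 0.0003% of the UMIs of any library, with Lum at 0 throughout.

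Of the 94 genes, 89 could be tested. The others were Ndufa13 and Cox4i1, with 0 UMIs in all 16 libraries, and Cox6a2, Cox8b and Cox8c, with at most 2 UMIs in any library. Cox4i1, the usual isoform of the largest nuclear subunit of complex IV, lies at chr8:120668222-120674207 of GRCm38 within the models of Emc8 and Gm20388. Ndufa13, a complex I subunit also known as GRIM-19, lies at chr8:69894180-69902558 within those of Tssk6 and Yjefn3, and Cox6a2, a muscle isoform, within Itgad. Among 1325 protein-coding genes whose body is wholly covered by other gene models 46.1% were at 0 in every library, against 3.15% of 8829 partly covered genes and 21.2% of 11711 genes without overlap. A count of 0 for such a gene does not show that its RNA was absent. Cox8b and Cox8c, tissue-restricted isoforms of a small complex IV subunit, have no overlap, and their 2 UMIs at most per library stood against 614 to 1423 UMIs for the common isoform Cox8a.

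The respiratory chain genes took a smaller share of the IP than of the input with both crosslinkers. They held 0.364% ± 0.0125 of the UMIs in the UV-RIP inputs and 0.298% ± 0.00648 in the UV-RIP IPs (SD, n = 4 each). In fRIP they held 0.538% ± 0.107 in the inputs and 0.319% ± 0.0152 in the IPs (SD, n = 4 each). The IP shares of the 2 crosslinkers lay close together, at 0.289% to 0.305% and 0.297% to 0.330%, whereas the fRIP inputs, at 0.452% to 0.691%, all lay above the UV-RIP inputs, at 0.350% to 0.379%. The highest fRIP input was that of plate 4 and the next highest was at 0.531%. By complex, the IPs lay below the inputs for complexes I to V in each crosslinker without overlap, while the assembly factors overlapped in fRIP.

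**Figure D1:**
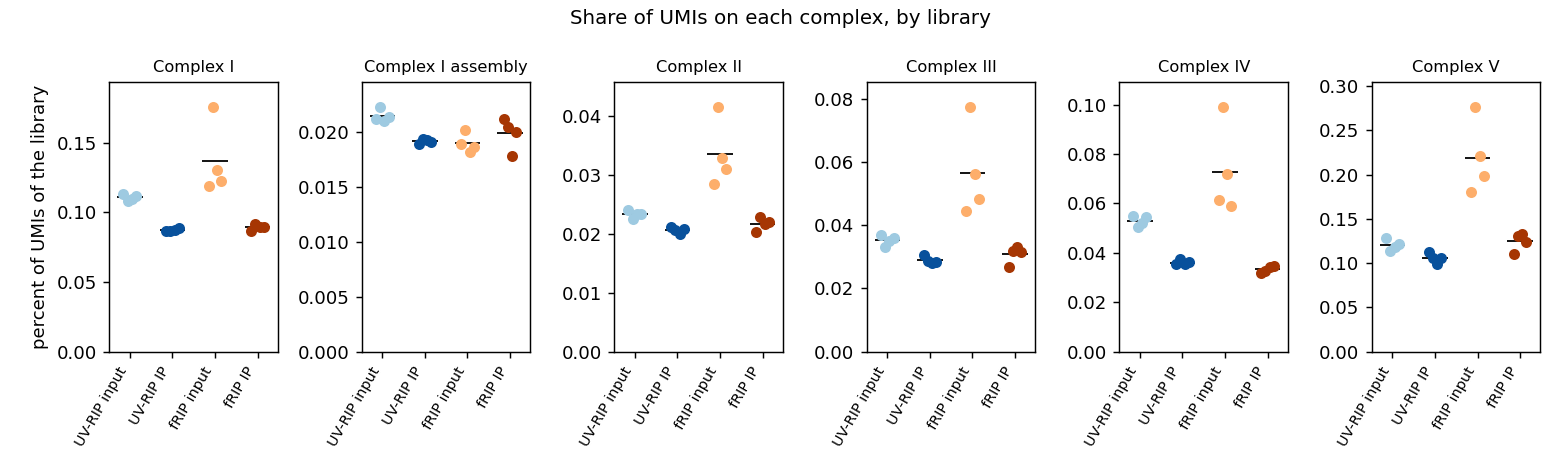
Percent of all UMIs of a library (linear axes from 0) that fall on the genes of each complex and on the complex I assembly factors, with 1 point per library, 4 per group, and the mean as a line. IP libraries lie below inputs for complexes I to V, and the highest point of each of these panels is the input of fRIP plate 4, with 0.277% on complex V.

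In UV-RIP, 26 of the 89 genes were depleted (29.2%), against 5.53% of all genes tested, and 0 were enriched, against 0.68%. By adjusted p alone 71 were lower (background 29%) and 0 higher (background 6.6%) in edgeR, with 0 higher at an unadjusted p below 0.05. DESeq2 called 0 higher with total UMIs and 4 with median-of-ratios scaling. In fRIP, 64 were depleted (71.9%), against 10.7% of all genes, and 1 was enriched, against 8.8%. By adjusted p alone 77 were lower (background 21.9%) and 1 was higher (background 17.6%). All 4 IPs lay below all 4 inputs for 64 of the genes in UV-RIP, where 25% of all genes did so, and for 74 in fRIP, where 19.2% did. The median log2 fold change was -0.41 in UV-RIP, which is -0.24 relative to all genes, and -0.87 in fRIP, which is -0.84 relative to all genes. Without plate 4 the fRIP median was -0.75 and 55 genes were depleted. TMM scaling gave 60 depleted genes in fRIP, but in UV-RIP it left 51 genes lower, 7 higher and 13 depleted, and removal of a trend on gene length left 47 lower, 8 higher and 10 depleted.

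For 57 of the 89 genes the fold change was not the same in fRIP as in UV-RIP by the interaction test in edgeR over all 16 libraries, against 26.7% of all genes. It was lower in fRIP for 50 (background 8.07%) and higher in fRIP for 7 (background 18.6%), with a median difference of -0.45 against 0.15 for all genes. With a trend on gene length removed 40 genes passed, with a median of -0.35 against 0.03. Among protein-coding genes under 5 kb that averaged at least 100 UMIs the median difference was -0.47, near the -0.52 of the respiratory chain genes of that length, and at 5 to 10 kb the medians were -0.21 and -0.50. They were -0.06 and -0.30 at 10 to 20 kb, and 0.26 and -0.16 from 20 kb upward. Without fRIP plate 4 the median difference was -0.28. This test shares its libraries with both comparisons above. Under DESeq2 with median-of-ratios scaling the split was 54 lower and 1 higher.

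Among the complexes, complex IV had the lowest median in both crosslinkers, and complex II had the highest, though not in every plate. In UV-RIP the medians were -0.41 for complex I, -0.23 for complex II, -0.41 for complex III, -0.60 for complex IV and -0.41 for complex V, and -0.39 for the assembly factors. In fRIP they were -0.73, -0.62, -1.05, -1.13 and -0.87 for complexes I to V and -0.66 for the assembly factors. Over the 4 plates the medians of single IP to input pairs for complex IV had an SD of 0.05 in UV-RIP and 0.32 in fRIP. In fRIP complex IV was lowest in all 4 plates, followed each time by complex III and then complex V, with complex IV at -1.60 in plate 4 and at -1.07 to -0.86 in the others. In UV-RIP complex IV was lowest in all 4 plates, and the place of complex III against complexes I and V changed from plate to plate. Within each complex the spread was wide: among genes that averaged at least 10 UMIs, complex I ran from -1.17 to 0.02 in UV-RIP and complex IV from -1.70 to 0.22 in fRIP. The complexes were set side by side as a description, without a test between them.

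**Figure D2:**
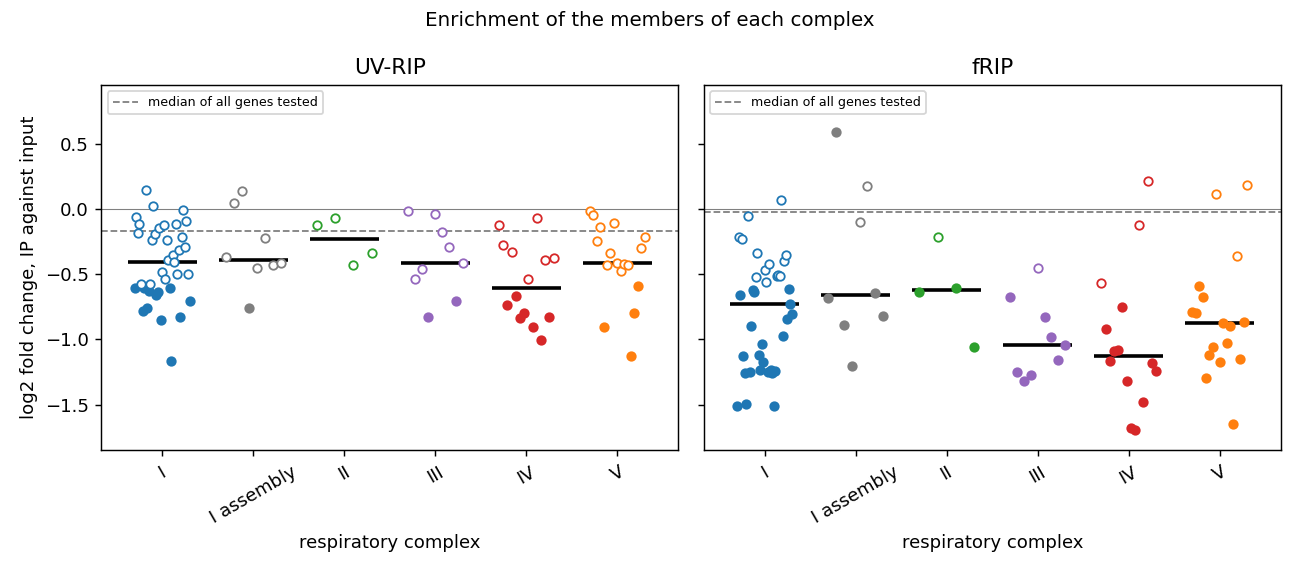
Log2 fold change of IP over input for the 89 tested genes, by complex, in UV-RIP (left) and fRIP (right). Each point is 1 gene, filled where it was called depleted or enriched, the bars are medians of the complex and the dashed line is the median of all 22936 genes. The fRIP medians lie lower than the UV-RIP medians in every complex.

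The genes were also described by role. The list of core subunits holds nuclear-encoded redox-active or catalytic subunits and others grouped with them here, Cox5a and Cox5b among the latter. Its 19 tested genes had a median of -0.18 in UV-RIP, close to -0.17 for all genes. Of these 1 was depleted (5.26%), near the 5.53% of all genes. The 62 other subunits of complexes I to V had a median of -0.47 and 24 were depleted (38.7%). In fRIP 13 of the 19 (68.4%) and 46 of the 62 (74.2%) were depleted, against 10.7% of all genes, with medians of -0.68 and -1.05. Gene length and the number of exons were not allowed for in this description.

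Complex I holds 38 of the genes, of which 37 were tested. In UV-RIP 29 were lower, 12 of them depleted, and in fRIP 34 were lower, 23 of them depleted. Ndufc1, a small membrane-arm subunit at chr3:51404677-51408988, had 13.1, 12.6, 14.99 and 14.3 CPM in the UV-RIP inputs and 5.84, 6.58, 6.70 and 5.44 CPM in the IPs. These groups were well apart, and its fold change of -1.17 (SE 0.09, adjusted p = 3.35e-34) was the lowest of all 89 genes in UV-RIP. It had 14.4, 27.4, 17.1 and 17.7 CPM in the fRIP inputs and 7.22, 5.79, 6.51 and 6.86 CPM in the IPs, also without overlap. The fRIP fold change was -1.51 (SE 0.14, adjusted p = 7.29e-09), and the difference between the crosslinkers did not pass (adjusted p = 0.2).

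Ndufa4 and Ndufa1 fell further in fRIP. Ndufa4, first assigned to complex I and now known as a complex IV subunit, had 37.2, 73.1, 44.5 and 33.3 CPM in the fRIP inputs and 16.5, 16.8, 14.9 and 15.9 CPM in the IPs. Plate 4 had the highest input. Its fold change was -1.50 (SE 0.12, adjusted p = 1.46e-09) in fRIP and -0.61 (SE 0.06, adjusted p = 4.61e-22) in UV-RIP, and the difference of -0.90 passed the interaction test (adjusted p = 8.18e-05). Ndufa1, a membrane-arm subunit encoded on the X chromosome, changed by -0.61 in UV-RIP and -1.51 in fRIP, with a difference of -0.90 (adjusted p = 5.44e-04). Their UV-RIP values of -0.43 and -0.43 with TMM scaling and -0.40 and -0.37 with the length trend removed passed the adjusted p but not 1.5-fold. Ndufa4l2, a paralogue of Ndufa4 known to be induced in hypoxia, had at most 11 UMIs in any library and no change could be told at this depth.

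Among the core subunits of complex I, which carry its flavin and iron-sulphur clusters or line its quinone site, Ndufv1 and Ndufs7 did not pass in UV-RIP. Ndufv1, which binds NADH and the flavin, had 42.95, 36.8, 37.6 and 41.7 CPM in the UV-RIP inputs and 37.3, 41.1, 33.7 and 36.98 CPM in the IPs. The groups overlapped and the fold change of -0.10 (adjusted p = 0.18) did not pass. In fRIP its inputs were higher, with 57.7, 86.8, 65.99 and 60.3 CPM in the fRIP inputs and 38.5, 42.9, 50.7 and 43.9 CPM in the IPs. There the groups did not overlap and the fold change was -0.61 (SE 0.09, adjusted p = 9.87e-06). Without plate 4 it was -0.47, within 1.5-fold. Ndufs7 and Ndufs8, which hold the last iron-sulphur clusters before coenzyme Q, changed by -0.01 (adjusted p = 0.954) and -0.29 (adjusted p = 0.00167) in UV-RIP and by -0.35 and -0.85 in fRIP. Without plate 4 the fRIP value of Ndufs7 was -0.21. Ndufs8 did not pass in UV-RIP with TMM scaling, at -0.11 (adjusted p = 0.369), or with the length trend removed, at -0.05 (adjusted p = 0.727). Once the length trend was removed Ndufs7 was at 0.19 (adjusted p = 0.031) in UV-RIP and -0.07 (adjusted p = 0.707) in fRIP, and the fRIP values of Ndufv1 and Ndufs8 were -0.24 and -0.42, lower but within 1.5-fold.

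Other core subunits of complex I had moderate values. Ndufs1, the largest iron-sulphur subunit, changed by -0.41 (adjusted p = 7.52e-18) in UV-RIP and -0.51 (adjusted p = 2.07e-05) in fRIP. Ndufs3 changed by -0.50 and -0.51, and Ndufv2 by -0.50 and -0.73, and the differences of these 3 genes did not pass (adjusted p = 0.466, 0.953 and 0.0719). Their differences of -0.11, -0.01 and -0.23 had standard errors of 0.10, 0.11 and 0.10. That of Ndufv2 passed with TMM scaling, at -0.35 (adjusted p = 0.00695), and with the length trend removed, at -0.33 (adjusted p = 0.0162), and so did that of Ndufs1 in the latter, at -0.28 (adjusted p = 0.044).

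In the fit as made some complex I genes passed with 1 crosslinker and not the other, and the difference itself was tested for these. Ndufa9, which binds NADPH and stabilises the peripheral arm, had 42.9, 42.2, 44.7 and 45.2 CPM in the UV-RIP inputs and 41.9, 44.3, 46.5 and 44.7 CPM in the IPs. These overlapped, and the fold change was 0.02 (adjusted p = 0.843). With TMM scaling it was 0.20 (adjusted p = 5.28e-04) and with the length trend removed 0.19 (adjusted p = 0.00161), both higher. With formaldehyde it had 51.1, 82.1, 54.99 and 50.9 CPM in the fRIP inputs and 40.05, 40.95, 42.3 and 40.05 CPM in the IPs and a fold change of -0.52 (adjusted p = 1.21e-04), with a difference between the crosslinkers of -0.55 (adjusted p = 9.06e-04). Ndufb2, a membrane-arm subunit, changed by -0.15 (adjusted p = 0.341) in UV-RIP and -1.03 (adjusted p = 2.91e-06) in fRIP, with a difference of -0.90 (adjusted p = 0.00174). Its body at chr6:39592574-39603382 is 38.6% covered by other gene models, Braf among them.

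Ndufs4, the accessory subunit whose loss causes Leigh syndrome, differed in the other direction. It had 121, 124, 119 and 116 CPM in the UV-RIP inputs and 89.2, 98.7, 94.1 and 103 CPM in the IPs, without overlap, and 108, 118, 105 and 114 CPM in the fRIP inputs and 135, 119.9, 96.6 and 118 CPM in the IPs, with overlap. The fold changes were -0.32 (SE 0.04, adjusted p = 3.14e-12) and 0.07 (SE 0.08, adjusted p = 0.554), and the difference of 0.39 (adjusted p = 0.00232) passed. Its gene body spans 100464 bases, and once a trend on gene length across all genes was removed the difference was 0.02 (adjusted p = 0.944).

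To show the sequence at the start of such genes, 300-base windows around RefSeq start sites on GRCm38.p6, reaching 250 bases upstream and 50 downstream, were searched on both strands for the letters of 3 motifs known from respiratory chain promoters. A window was matched for 74 of the 94 genes. The Ndufs4 window held 1 YY1 motif, AAGATGGCG, with its first base 35 bases after the start site. It is shown with its flanks, the motif in capitals, from chr13:114388045-114388074 on the minus strand.
Ndufs4: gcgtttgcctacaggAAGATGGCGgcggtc

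The YY1 letters were found in 8 of the 74 genes (10.8%), against 1.64% of all 27025 genes with a window and 2.25% of the 16504 protein-coding ones. The NRF1 motif GCGCATGCG was found in 10 of the 74 (13.5%), against 1.95% and 2.74%. The GABP motif CCGGAAGT was found in 5 (6.76%), against 4.31% and 5.94%. There were 0 overlaps between sites of different motifs in the windows of the respiratory chain genes. The median fRIP fold change was -0.65 for the 10 genes with the NRF1 letters, -0.67 for the 8 with YY1 and -1.16 for the 5 with GABP, and it lay between -0.87 and -0.89 for the genes without a given motif. In UV-RIP the medians were -0.39, -0.36 and -0.48 for the same 3 groups and between -0.42 and -0.39 for the genes without. Letters in a window are a description and not evidence of binding.

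The 8 complex I assembly factors, which build the complex and do not stay in it, held the 1 enriched gene. Ndufaf2, an assembly factor related to Ndufa12 at chr13:108002715-108158623, had 73.7, 60.2, 63.97 and 71.99 CPM in the fRIP inputs and 115, 104, 86.8 and 100.1 CPM in the IPs. All 4 IPs lay above all 4 inputs, with a fold change of 0.59 (SE 0.08, adjusted p = 2.41e-06). The value lay just above the threshold of 1.5-fold and did not reach it without plate 4, at 0.52, or with the length trend removed, at 0.24 (adjusted p = 0.0215). It had 97.1, 106, 96.8 and 96.8 CPM in the UV-RIP inputs and 101, 107, 98.9 and 102 CPM in the IPs, which overlapped, with a fold change of 0.04 (adjusted p = 0.535) that was 0.22 (adjusted p = 3.63e-07) with TMM scaling and 0.12 (adjusted p = 0.0164) with the length trend removed. The difference of 0.55 (adjusted p = 3.65e-05) passed the interaction test but was 0.11 (adjusted p = 0.496) once the trend on gene length was removed, the gene body spanning 155909 bases.

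Ndufaf4 and Ndufaf3 lay at the other end. Ndufaf4, which acts early in assembly, changed by -0.76 (SE 0.10, adjusted p = 1.84e-12) in UV-RIP and -1.20 (SE 0.12, adjusted p = 2.11e-08) in fRIP, lowest among the assembly factors in both. Ndufaf3, its known partner, had 4.17, 3.36, 3.48 and 3.11 CPM in the UV-RIP inputs and 4.36, 3.87, 3.96 and 3.36 CPM in the IPs, which overlapped. It had 4.94, 6.82, 6.15 and 6.09 CPM in the fRIP inputs and 3.10, 2.87, 3.68 and 3.32 CPM in the IPs, without overlap. The fold changes were 0.14 (adjusted p = 0.529) and -0.89 (adjusted p = 1.94e-05), and the difference of -1.02 (adjusted p = 1.72e-04) was among the 3 lowest of those that passed. Its body spans 1898 bases, and its counts ran from 42 to 97 UMIs. With the trend on length removed it did not pass in fRIP, at -0.32 (adjusted p = 0.0941), and was higher in UV-RIP, at 0.41 (adjusted p = 0.0131), while the difference still passed at -0.69 (adjusted p = 0.0122). Ndufaf4 then lay within 1.5-fold in UV-RIP, at -0.55, as it did with TMM scaling, at -0.58.

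Complex II is built from 4 nuclear-encoded proteins and has no mitochondrially encoded subunit. In UV-RIP 0 of the 4 were depleted, against 5.53% of all genes, a share at which 4 genes are too few to tell. In edgeR 3 were lower (background 29%), also 3 at an unadjusted p below 0.05. DESeq2 with median-of-ratios scaling had 1 lower, and DESeq2 depleted 0 with either scaling. In fRIP 3 were depleted, against 10.7% of all genes. Sdha, the flavoprotein that oxidises succinate, had 120.4, 113, 117 and 119 CPM in the UV-RIP inputs and 113, 103, 106 and 109 CPM in the IPs. The groups overlapped and the fold change was -0.12 (adjusted p = 0.0133), a value that turned to 0.06 with TMM scaling. The same gene had 145, 213, 165 and 156 CPM in the fRIP inputs and 106, 113, 103 and 111 CPM in the IPs, without overlap, and a fold change of -0.64 (SE 0.08, adjusted p = 1.08e-06). Without plate 4 it was -0.54, within 1.5-fold. Sdhb, the iron-sulphur subunit, overlapped in both crosslinkers and changed by -0.07 (adjusted p = 0.362) and -0.21 (adjusted p = 0.0541), the latter -0.11 without plate 4.

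Both membrane anchors, Sdhc and Sdhd, were lower with each crosslinker. Sdhc changed by -0.43 (adjusted p = 1.08e-11) in UV-RIP and -0.60 (adjusted p = 1.84e-06) in fRIP, and its difference did not pass (adjusted p = 0.228). With TMM scaling the fRIP value was -0.56, within 1.5-fold, and the difference passed at -0.29 (adjusted p = 0.0217). Sdhd, at chr9:50596357-50603812, had 46.4, 82.7, 58.97 and 54.3 CPM in the fRIP inputs and 25.4, 30.8, 30.3 and 27.9 CPM in the IPs, with no overlap and the highest input in plate 4. It changed by -1.06 (SE 0.09, adjusted p = 3.68e-09) in fRIP and -0.34 (SE 0.06, adjusted p = 5.99e-08) in UV-RIP, and the difference of -0.72 (adjusted p = 2.14e-05) held without fRIP plate 4 at -0.59. With the length trend removed Sdhd did not pass in UV-RIP, at -0.14 (adjusted p = 0.0661).

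All 9 complex III genes were lower in fRIP, 8 of them depleted, and in the interaction test the 9 were lower in fRIP than in UV-RIP, 6 of them past 1.5-fold. Without fRIP plate 4 these counts were 8 and 0. In UV-RIP 7 were lower, 2 of them depleted. Uqcrb, a subunit at the coenzyme Q site, was the lowest in UV-RIP, with 20.4, 18.1, 22.5 and 21.4 CPM in the UV-RIP inputs and 12.4, 10.5, 11.4 and 12.04 CPM in the IPs. Its groups did not overlap and it changed by -0.83 (SE 0.08, adjusted p = 1.73e-26), against -1.27 (SE 0.10, adjusted p = 3.73e-10) in fRIP. The difference of -0.45 (adjusted p = 0.00568) did not pass with the length trend removed, at -0.27 (adjusted p = 0.143). Uqcr11, the smallest subunit, was the lowest in fRIP, with 24.4, 63.97, 34.4 and 24.8 CPM in the fRIP inputs and 12.5, 12.6, 17.2 and 13.2 CPM in the IPs, among which the plate 4 input stood far above the rest. Its fold change was -1.32 (adjusted p = 2.60e-07) with plate 4 and -0.96 without it, when Uqcrb was lowest at -1.23.

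Cyc1 and Uqcrc1 did not pass in UV-RIP. Cyc1, the cytochrome c1 that hands electrons to cytochrome c, had 45.4, 33.4, 39.1 and 39.8 CPM in the UV-RIP inputs and 41.1, 40.6, 38.3 and 36.05 CPM in the IPs, with overlap, and changed by -0.02 (adjusted p = 0.88), but with TMM scaling the value was 0.16 (adjusted p = 0.00875), which is higher. It had 60.3, 97.4, 78.5 and 69.1 CPM in the fRIP inputs and 39.7, 48.8, 52.1 and 48.9 CPM in the IPs, without overlap, and changed by -0.68 (SE 0.09, adjusted p = 9.54e-07), or -0.56 without plate 4, which is within 1.5-fold, but by -0.15 (adjusted p = 0.193) once the trend on gene length was removed. Uqcrc1, a core protein of the matrix side, changed by -0.04 (adjusted p = 0.594) in UV-RIP, which became 0.14 (adjusted p = 0.00421) with TMM scaling, and by -0.45 (adjusted p = 3.33e-05) in fRIP. The other core protein Uqcrc2 changed by -0.18 (adjusted p = 0.00151) and -0.83 (adjusted p = 2.98e-08), and the Rieske iron-sulphur protein Uqcrfs1 by -0.29 (adjusted p = 1.53e-04) and -0.98 (adjusted p = 8.50e-08). Neither passed in UV-RIP with TMM scaling, at 0.005 (adjusted p = 0.976) and -0.11 (adjusted p = 0.265), or with the length trend removed, at -0.006 (adjusted p = 0.967) and -0.06 (adjusted p = 0.583). The Uqcrc1 window held the NRF1 motif on both strands at overlapping positions, the first 30 bases after the start site, in the stretch chr9:108936668-108936697 on the plus strand, with the matched letters in capitals.
Uqcrc1: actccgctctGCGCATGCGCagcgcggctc

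Complex IV held 18 genes, of which 14 were tested, with 7 depleted in UV-RIP and 11 in fRIP. Cox7b, which has a role in assembly, was lowest in UV-RIP, with 53.5, 49.9, 55.6 and 52.6 CPM in the UV-RIP inputs and 25.6, 25.8, 27.1 and 26.9 CPM in the IPs. Every IP lay far below every input, and the fold change was -1.01 (SE 0.06, adjusted p = 8.98e-72). With formaldehyde it had 58.2, 122, 67.2 and 53.2 CPM in the fRIP inputs and 24.3, 25.9, 25.6 and 26.6 CPM in the IPs and changed by -1.48 (SE 0.13, adjusted p = 2.81e-09). Cox7a2, the widely expressed isoform of subunit 7a, was lowest in fRIP, with 44.4, 122, 57.6 and 41.7 CPM in the fRIP inputs and 16.98, 19.7, 18.2 and 20.4 CPM in the IPs. All IPs lay below all inputs, with plate 4 at the highest input, and the fold change was -1.70 (SE 0.15, adjusted p = 5.07e-09) with this plate and -1.37 without it, when Cox7a1 was at -1.399, against -0.90 (adjusted p = 8.44e-51) in UV-RIP.

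Of the complex IV genes on the list of core subunits, Cox5a and Cox5b could be measured. Cox5a, a subunit on the matrix side, had 97.00, 122, 109 and 99.4 CPM in the fRIP inputs and 55.2, 58.4, 50.7 and 62.2 CPM in the IPs, without overlap, and changed by -0.92 (adjusted p = 7.93e-09) in fRIP and by -0.28 (adjusted p = 3.71e-08) in UV-RIP. Cox5b, which binds zinc, changed by -0.74 (adjusted p = 4.02e-27) in UV-RIP and -1.16 (adjusted p = 3.08e-09) in fRIP. It was the only gene of the core list depleted in UV-RIP. With TMM scaling Cox5a did not pass in UV-RIP, at -0.10 (adjusted p = 0.0937), and with the length trend removed neither, at -0.09 (adjusted p = 0.13), while Cox5b stayed lower but within 1.5-fold, at -0.56 and -0.47. Cox8a, the common isoform of subunit 8, had 61.2, 55.2, 58.4 and 62.5 CPM in the UV-RIP inputs and 44.9, 51.4, 42.9 and 44.5 CPM in the IPs. In fRIP the inputs had 88.3 ± 11.7 CPM and the IPs 37.2 ± 2.85 CPM (SD, n = 4 each). Its IPs lay below its inputs in both, by -0.37 and -1.24, with a difference of -0.87 (adjusted p = 8.14e-07). After removal of the length trend its UV-RIP value was -0.11 (adjusted p = 0.0796).

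Complex IV is also where paralogous genes encode alternative isoforms, and these could be compared within the same libraries. Cox7a1, the heart and muscle isoform, was measured at low counts of 24 to 169 UMIs, with 3.71, 11.9, 6.37 and 4.99 CPM in the fRIP inputs and 1.35, 2.43, 2.36 and 1.99 CPM in the IPs. Its IPs lay below its inputs and it changed by -1.68 (SE 0.17, adjusted p = 2.76e-08), near the value of Cox7a2, with a difference between the crosslinkers of -1.15 (adjusted p = 0.0012), the lowest of the respiratory chain genes that passed. Without fRIP plate 4 the difference was -0.86, and that of Ndufaf3 was lower at -0.90. The related Cox7a2l, which acts in joining complexes into supercomplexes, had 41.7, 49.8, 49.1 and 47.04 CPM in the fRIP inputs and 42.6, 44.8, 37.7 and 47.6 CPM in the IPs, with overlap, and changed by -0.07 (adjusted p = 0.392) in UV-RIP and -0.12 (adjusted p = 0.304) in fRIP. Cox6b1 and its testis isoform Cox6b2 were both depleted, by -0.67 and -0.84 in UV-RIP and -1.08 and -0.75 in fRIP. Once the length trend was removed Cox6b2 did not pass in fRIP, at -0.10 (adjusted p = 0.584), and lay within 1.5-fold in UV-RIP, at -0.54, and so did Cox6b1 there, at -0.48.

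Cox7b2 is a testis-associated paralogue of Cox7b. It had 5.54, 6.25, 5.07 and 5.64 CPM in the UV-RIP inputs and 3.73, 4.54, 4.08 and 4.69 CPM in the IPs, without overlap, and changed by -0.39 (adjusted p = 0.00488). The same gene had 3.06, 1.97, 1.81 and 2.13 CPM in the fRIP inputs and 3.50, 2.58, 2.17 and 2.16 CPM in the IPs, with overlap, and changed by 0.22 (adjusted p = 0.388). The difference of 0.61 (adjusted p = 0.0211) passed in the fit as made but in neither DESeq2 fit (adjusted p = 0.135 with total UMIs), and its gene body spans 105382 bases against 6751 for Cox7b. Its UV-RIP value did not pass with TMM scaling, at -0.21 (adjusted p = 0.203), or with the length trend removed, at -0.29 (adjusted p = 0.0574). Cox4i2, the lung and hypoxia isoform, had at most 7 UMIs in any library and no difference could be told (adjusted p = 0.948 and 0.465).

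Cox6a1, the widely expressed isoform of subunit 6a, changed by -0.33 (adjusted p = 1.31e-09) in UV-RIP and -1.09 (adjusted p = 5.83e-08) in fRIP. With the trend on length removed the UV-RIP value was -0.08 (adjusted p = 0.262). Its window held overlapping NRF1 motifs on both strands, the first 162 bases before the start site. The 250 bases upstream, at chr5:115348959-115349208 on the minus strand, are printed because they carry this motif, in capitals.
Cox6a1: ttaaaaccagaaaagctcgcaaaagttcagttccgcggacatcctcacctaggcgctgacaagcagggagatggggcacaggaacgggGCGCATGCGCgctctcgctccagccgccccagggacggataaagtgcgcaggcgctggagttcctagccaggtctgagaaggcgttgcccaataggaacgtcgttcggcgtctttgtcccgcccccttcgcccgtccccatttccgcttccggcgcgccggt

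**Figure D3:**
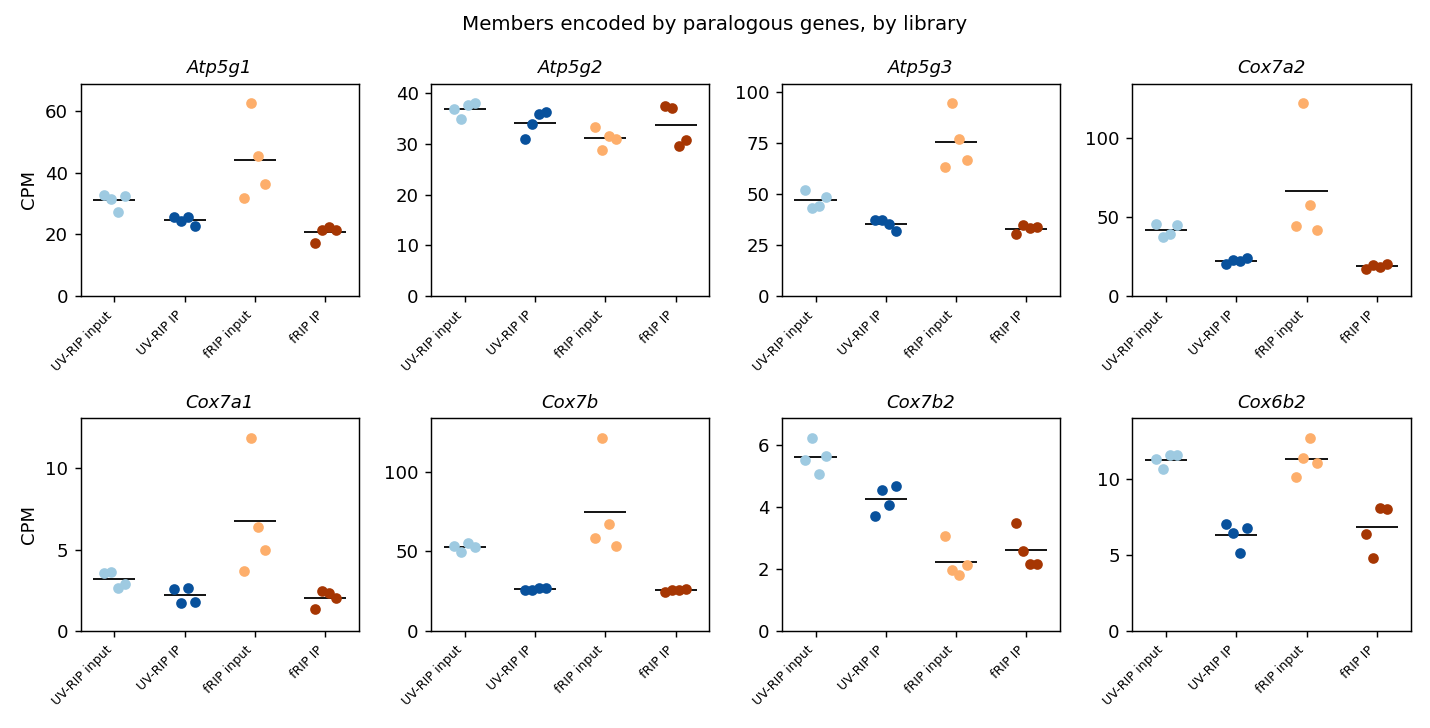
CPM in each library (linear axes from 0) for 8 genes with paralogues, with 4 libraries per group and the mean as a line. In the panels of Atp5g2 and Cox7b2 every fRIP input lies below every UV-RIP input, and in those of Atp5g3 and Cox7a1 every fRIP input lies above.

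All 17 complex V genes were tested, with 4 depleted in UV-RIP and 14 in fRIP. Atp5b, the catalytic beta subunit of the F1 head at chr10:128083273-128090391 and the most counted gene of the set with 4057 to 13489 UMIs, had 388, 325, 335 and 351 CPM in the UV-RIP inputs and 376, 345, 299 and 339.5 CPM in the IPs. These groups overlapped and the fold change was -0.04 (SE 0.04, adjusted p = 0.437). It had 644, 948, 821 and 742 CPM in the fRIP inputs and 382, 478, 489 and 452 CPM in the IPs. Every fRIP input was above every fRIP IP and the fold change was -0.80 (SE 0.07, adjusted p = 6.76e-09).

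Atp5a1, the alpha subunit of the same head, had near values. It had 266, 215, 232 and 245 CPM in the UV-RIP inputs and 261, 232, 217 and 236 CPM in the IPs, with overlap, and 463, 722, 586 and 532 CPM in the fRIP inputs and 283, 343, 371 and 324 CPM in the IPs, without overlap. Its fold changes were -0.02 (SE 0.04, adjusted p = 0.799) and -0.79 (SE 0.08, adjusted p = 2.11e-08). The differences between the crosslinkers, -0.77 (adjusted p = 4.62e-07) for Atp5a1 and -0.76 (adjusted p = 2.11e-07) for Atp5b, were -0.68 and -0.69 without fRIP plate 4. In UV-RIP the direction of both genes depends on scaling, since TMM scaling turned them to 0.16 and 0.14, both past the adjusted p. With the length trend removed the fRIP values of Atp5a1 and Atp5b were -0.54 and -0.49, lower but within 1.5-fold.

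Subunit c forms the rotating ring of ATP synthase and is encoded by Atp5g1, Atp5g2 and Atp5g3, whose precursors differ in the import sequence and give the same mature protein. Atp5g1 had 31.8, 62.6, 45.4 and 36.3 CPM in the fRIP inputs and 17.3, 21.4, 22.3 and 21.5 CPM in the IPs. Its groups did not overlap and its fold change was -1.06 (SE 0.11, adjusted p = 2.17e-08). Atp5g3 had 63.6, 94.8, 76.9 and 67.00 CPM in the fRIP inputs and 30.4, 34.8, 33.3 and 34.1 CPM in the IPs, again without overlap, and changed by -1.18 (SE 0.09, adjusted p = 3.65e-10). Atp5g2 had 33.2, 28.8, 31.6 and 30.9 CPM in the fRIP inputs and 37.4, 37.01, 29.6 and 30.8 CPM in the IPs. Here the groups overlapped and the fold change was 0.11 (SE 0.09, adjusted p = 0.381), or 0.35 (adjusted p = 0.00346) once the trend on gene length was removed.

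The same order held in UV-RIP. Atp5g1 had 32.8, 31.6, 27.2 and 32.5 CPM in the UV-RIP inputs and 25.5, 24.4, 25.6 and 22.6 CPM in the IPs, and Atp5g3 had 51.9, 43.3, 44.4 and 48.8 CPM in the UV-RIP inputs and 37.2, 37.4, 35.2 and 31.9 CPM in the IPs. Both were lower without overlap, by -0.34 and -0.41. Atp5g2 had 36.8, 34.8, 37.6 and 38.04 CPM in the UV-RIP inputs and 30.9, 33.8, 35.9 and 36.2 CPM in the IPs, with overlap, and its fold change of -0.11 did not pass (adjusted p = 0.14). The lowest Atp5g2 IP was that of plate 3. The genes span 6819 (Atp5g1), 9489 (Atp5g2) and 2880 bases (Atp5g3). After removal of the length trend Atp5g1 did not pass in UV-RIP, at -0.13 (adjusted p = 0.0957).

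The 250 bases upstream of the 3 subunit c genes are printed to set the gene that did not pass in either crosslinker beside its paralogues, which were depleted in fRIP. Of the 3 windows, that of Atp5g2 held overlapping NRF1 motifs on both strands, given in capitals, the first 42 bases before the start site, and those of Atp5g1 and Atp5g3 held none of the 3 motifs. The windows of Atp5k and Cox6a1, both depleted in fRIP, also held the NRF1 letters. The medians over all genes with these letters are given above, and a link with the fold change was not tested. They lie on the minus strand of GRCm38.p6 at chr11:96075632-96075881, chr15:102671048-102671297 and chr2:73911327-73911576.
Atp5g1: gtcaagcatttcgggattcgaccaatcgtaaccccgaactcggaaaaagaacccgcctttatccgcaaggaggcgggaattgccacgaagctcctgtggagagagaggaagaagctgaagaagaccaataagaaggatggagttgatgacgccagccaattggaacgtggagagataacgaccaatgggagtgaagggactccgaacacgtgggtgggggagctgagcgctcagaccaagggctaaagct
Atp5g2: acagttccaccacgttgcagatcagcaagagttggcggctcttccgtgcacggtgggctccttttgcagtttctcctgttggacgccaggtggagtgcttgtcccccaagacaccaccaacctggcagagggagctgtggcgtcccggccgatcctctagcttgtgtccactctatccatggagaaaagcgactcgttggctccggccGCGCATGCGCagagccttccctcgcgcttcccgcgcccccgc
Atp5g3: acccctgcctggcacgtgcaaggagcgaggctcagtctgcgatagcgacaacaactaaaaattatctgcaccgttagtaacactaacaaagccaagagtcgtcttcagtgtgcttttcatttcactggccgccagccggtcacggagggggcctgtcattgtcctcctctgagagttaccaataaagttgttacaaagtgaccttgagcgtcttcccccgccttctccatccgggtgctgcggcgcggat

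Atp5k and Atp5l encode small membrane subunits of complex V. Atp5k, the subunit e that stabilises dimers of the enzyme, had 6.74, 7.05, 6.13 and 7.30 CPM in the UV-RIP inputs and 3.52, 2.31, 3.47 and 3.12 CPM in the IPs and 10.7, 20.6, 13.7 and 10.9 CPM in the fRIP inputs and 4.06, 4.43, 5.52 and 3.596 CPM in the IPs. Neither crosslinker showed overlap, and the fold changes of -1.13 (SE 0.13, adjusted p = 7.43e-18) and -1.64 (SE 0.14, adjusted p = 1.48e-09) were the lowest of complex V. Atp5l, the subunit g of the same dimer interface, had 19.1, 17.7, 21.6 and 16.9 CPM in the UV-RIP inputs and 11.2, 10.9, 10.8 and 10.5 CPM in the IPs, without overlap. It changed by -0.80 (adjusted p = 7.68e-23) in UV-RIP but by -0.36 (adjusted p = 0.00472) in fRIP, and the difference of 0.43 (adjusted p = 0.00854) passed in this fit and not with TMM scaling (0.31, adjusted p = 0.056). Once the length trend was removed the fRIP value was -0.09 (adjusted p = 0.57).

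Atp5s, named as a coupling factor, was at -0.21 (adjusted p = 0.0163) in UV-RIP and 0.18 (adjusted p = 0.165) in fRIP. Its difference of 0.40 (adjusted p = 0.0152) did not pass with TMM scaling (0.28, adjusted p = 0.0926). Its UV-RIP value did not pass either, at -0.03 (adjusted p = 0.84), and with the length trend removed it was at -0.04 (adjusted p = 0.779) in UV-RIP and higher in fRIP, at 0.28 (adjusted p = 0.036). Atp5o, the stalk subunit OSCP, changed by -0.30 (adjusted p = 4.37e-08) and -0.87 (adjusted p = 1.77e-08). The deposited length of its gene body is 247290 bases against 6474 in GENCODE vM21, where the identifier has another version, so its counts may have been taken over a wider region.

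**Figure D4:**
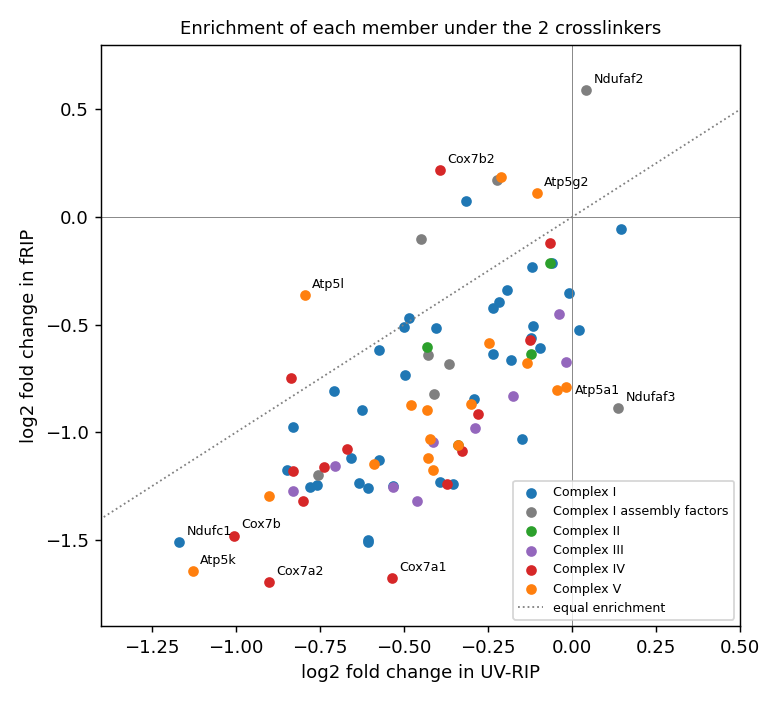
Log2 fold change of IP over input in UV-RIP (x axis) against fRIP (y axis) for the 89 tested genes, coloured by complex, with the dotted line where both are equal. Most points lie below the line, and Ndufaf2 is the only gene above 0.5 in fRIP.

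Across the 89 genes the fold changes of the 2 crosslinkers, which come from separate libraries, correlated at 0.65 (Pearson) and 0.68 (Spearman), given as a description since the genes share library, depth and sequence features. Short genes lay lower in both, as seen in the plot of fold change against gene length. The Spearman correlation of fold change with gene length over these genes was 0.38 in UV-RIP and 0.60 in fRIP, and with the number of exon blocks 0.50 and 0.48. With the GC percent of the longest transcript it was 0.28 and 0.06. Over protein-coding genes that averaged at least 100 UMIs it was 0.57 and 0.32 with GC percent, and 0.20 and 0.59 with gene length. Respiratory chain genes are short. The tested genes had a median body of 7.67 kb, against 29.6 kb for 9792 protein-coding genes that averaged at least 100 UMIs.

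The genes were therefore set beside protein-coding genes of their own length, all that averaged at least 100 UMIs. In fRIP, genes under 5 kb had a median of -1.18 for the respiratory chain (23 genes) and -0.79 for all 662, and those of 5 to 10 kb -1.04 (28 genes) and -0.43 (1044 genes). Between 10 and 20 kb the medians were -0.59 (16 genes) and -0.27 (1855 genes), and from 20 kb upward -0.52 (14 genes) and 0.09 (6231 genes). Lengths are as deposited, so the 14 genes include Atp5o, at 247290 bases against 6474 in GENCODE vM21. In UV-RIP the same classes had -0.63, -0.41, -0.23 and -0.23 for the respiratory chain and -0.28, -0.20, -0.18 and -0.15 for all. The respiratory chain median lay below that of its length class in each case. With a trend on gene length removed, 45 of the 64 genes remained depleted in fRIP, against 5.6% of all genes, and 10 of the 26 in UV-RIP, against 1.73%, and these were all that were then called.

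**Figure D5:**
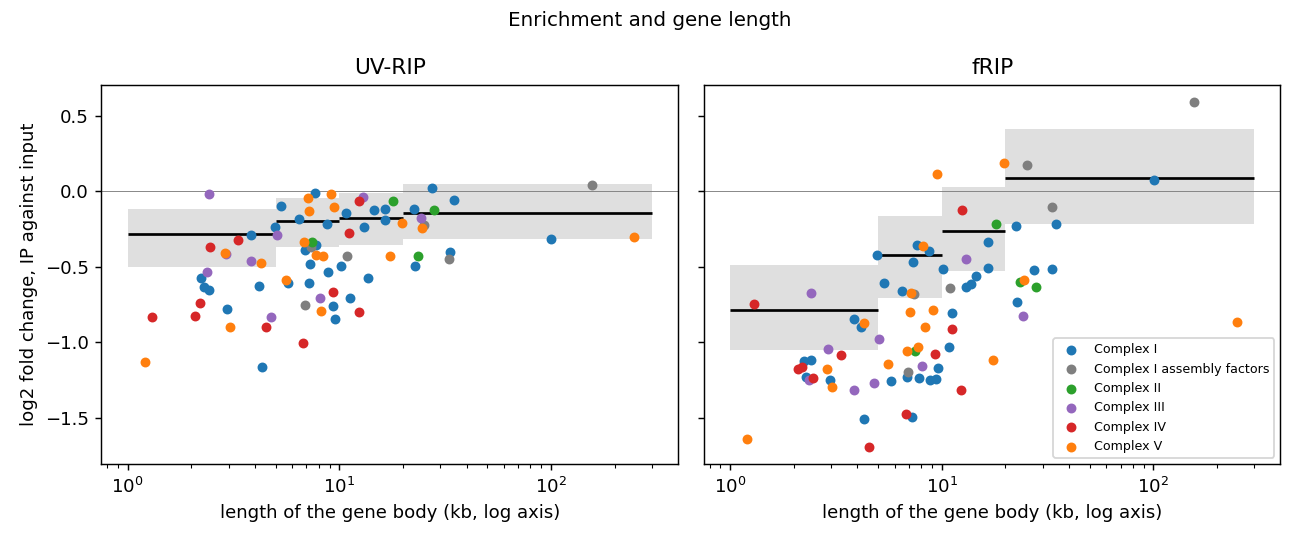
Log2 fold change of IP over input against the length of the gene body as deposited (log axis, kb) for the 81 respiratory chain genes that averaged at least 100 UMIs, coloured by complex. Black lines and grey bands give the median and the quartiles of all protein-coding genes in 4 length classes, and most points lie below the black lines, the isolated point near 250 kb being Atp5o.

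The inputs themselves differed between the crosslinkers. By edgeR 51 of the 89 genes were higher in the fRIP inputs (background 20.2%) and 6 lower (background 17%), with 30 and 1 past 1.5-fold, against 10.6% and 9.44% of all genes. The median was 0.45 against 0.03 for all genes. Other short genes were also higher in the fRIP inputs. Under 5 kb 56.5% of the respiratory chain genes and 58.2% of all protein-coding genes that averaged at least 100 UMIs were higher past 1.5-fold, with medians of 0.63 and 0.66, and at 5 to 10 kb 28.6% and 29.5%, with medians of 0.49 and 0.39. At 10 to 20 kb the shares were 25% and 15.5%, with medians of 0.23 and 0.16. From 20 kb upward they were 21.4% and 5.76%, with medians of 0.28 and -0.04. With the trend on length removed 21 were higher and 11 lower, with a median of 0.21. The largest difference was in Atp5a1, with 266, 215, 232 and 245 CPM in the UV-RIP inputs and 463, 722, 586 and 532 in the fRIP inputs. All fRIP inputs lay above all UV-RIP inputs, by 1.26 (SE 0.11, adjusted p = 3.29e-07), or 1.14 without fRIP plate 4. Cox7b2 was the 1 gene lower past 1.5-fold, with 5.54, 6.25, 5.07 and 5.64 CPM in the UV-RIP inputs and 3.06, 1.97, 1.81 and 2.13 in the fRIP inputs, a change of -1.32 (SE 0.17, adjusted p = 1.91e-05).

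Without fRIP plate 4 the input median was 0.25, with 13 genes higher and 1 lower past 1.5-fold. In such bulk samples a lower share of one kind of cell and less RNA in each cell cannot be told apart, and the crosslinker and the plates cannot be told apart either. Other lists were also higher in the fRIP inputs. The 10 naive mESC markers made up 0.414% to 0.495% of the fRIP inputs and 0.258% to 0.276% of the UV-RIP inputs, 6 of the 9 tested were higher past 1.5-fold and their median was 0.97. The 5 trophectoderm markers, at 79 UMIs or fewer in any library, made up 0.0008% to 0.0011% and 0.0002% to 0.0003%, with 3 of 4 tested higher past 1.5-fold and a median of 1.90. Of the 83 cytosolic ribosomal protein genes 59 were higher past 1.5-fold, with a median of 0.69, or 22 and 0.49 without fRIP plate 4. Their part in the result was not tested. Since fRIP fold changes are measured against these inputs, the depletion in fRIP and the height of the fRIP inputs share data.

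The rest of the respiratory system was described by the same counts from lists chosen by gene function. The subunits encoded by mitochondrial DNA had medians far below those of the nuclear ones. In UV-RIP mt-Nd6 at -1.08 and mt-Nd3 at -1.13 lay within the range of the nuclear genes, whose lowest was -1.17. Of 13 such genes 8 could be tested and the others, mt-Co2, mt-Co3, mt-Atp6, mt-Atp8 and mt-Nd4l, had at most 2 UMIs in any library. At most 21.1% of their gene bodies was covered by other gene models, and mt-Co1 had 16830 to 116674 UMIs. Counts this low do not show that the untested RNAs were absent, and the reason for them was not tested. In UV-RIP 7 of the 8 tested genes were depleted with a median of -1.98, and in fRIP all 8 with a median of -2.55. The complex IV subunit mt-Co1 had 5282 to 6231 CPM in the UV-RIP inputs and 2215 to 2555 in the IPs, a change of -1.26. After formaldehyde crosslinking it had 4556 to 7585 CPM in the inputs and 793 to 1730 in the IPs, a change of -2.26 (adjusted p = 7.83e-12). The complex I subunit mt-Nd2 was lowest in both, at -2.84 and -3.24. Without fRIP plate 4 the fRIP median was -2.63.

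Factors that assemble the chain were counted in the same way. Of 41 tested assembly factors of the other complexes and of complex I outside the Ndufaf genes, 4 were depleted in UV-RIP and 15 in fRIP, which is 9.76% and 36.6% against 5.53% and 10.7% of all genes, with medians of -0.23 and -0.41. Cox10, which makes haem A for complex IV, was the most enriched of them in fRIP at 0.68 (adjusted p = 3.03e-07), and Coa6, a copper-handling factor of complex IV, the lowest at -1.49 (adjusted p = 6.04e-07). Cytochrome c itself, encoded by Cycs, changed by -0.72 (adjusted p = 8.95e-10) in UV-RIP and -1.29 (adjusted p = 1.23e-07) in fRIP, and was the 1 depleted gene in each crosslinker among 14 for cytochrome c and coenzyme Q synthesis (7.14%), while Pdss2, for coenzyme Q synthesis, was the 1 enriched gene, in fRIP, at 0.59 (adjusted p = 6.13e-07). In fRIP 2 were depleted without plate 4, and Pdss2 was no longer enriched. These genes were named as the extremes of their lists after the values were seen.

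Among 17 genes of the citric acid cycle and its entry enzyme, 0 were depleted in UV-RIP and 7 in fRIP by edgeR. Of all genes 5.53% and 10.7% were depleted. The medians of the 17 were -0.12 and -0.52, against -0.17 and -0.03 for all genes. In UV-RIP 11 of the 17 were lower at an unadjusted p below 0.05 in edgeR, against 2 in DESeq2 with median-of-ratios scaling. DESeq2 depleted 0 with either scaling. Dld, the lipoamide dehydrogenase shared by pyruvate and oxoglutarate dehydrogenases, was lowest at -1.22 (adjusted p = 4.99e-10) in fRIP, and Suclg2, a succinate-CoA ligase subunit, highest at 0.63 (adjusted p = 8.09e-07). Without fRIP plate 4, 5 genes of this list were depleted and 0 enriched, so Suclg2 was no longer called enriched. Of 75 tested mitochondrial ribosomal protein genes 9 were depleted in UV-RIP and 40 in fRIP, with medians of -0.35 and -0.63. Of 83 cytosolic ribosomal protein genes 38 and 74 were depleted, with medians of -0.55 and -0.99, so in both crosslinkers the respiratory chain medians of -0.41 and -0.87 lay between those of the ribosomal lists. The 10 regulators of mitochondrial genes showed no common direction, with medians of -0.06 and 0.02. The coactivator Ppargc1b was enriched in fRIP by 1.09 (adjusted p = 1.31e-09), and Tfam, which packages mitochondrial DNA, changed by -0.69 (adjusted p = 8.43e-07).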

How the data were processed

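The authors deposited 1 table of UMI counts for 53379 genes in 16 libraries, with introns included. Per the labels, RNA was ribodepleted and sequenced with UMI adaptors, and reads were aligned to mm10 with STAR. The study's methods name featureCounts with non-unique reads discarded. The strand setting is not given in the sources used here, so overlapping and antisense genes may share or lose reads. The study describes the plates as distinct culture plates and biological replicates.

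Groups came from the labels. From the deposited counts, edgeR 4.0.16 in R 4.3.3 was run with total UMIs as library size on 22936 genes with at least 3 UMIs in 1 library. IP and input were compared within each crosslinker with the plate as a block, since each pair came from 1 lysate. Same-numbered deviations correlated at 0.11 to 0.60 in fRIP and 0.03 to 0.44 in UV-RIP, against -0.52 to 0.21 and -0.31 to 0.15 for other numbers. The difference was an interaction over 16 libraries, and inputs were compared without a block. Replicates differed by more than sampling noise (chi-square per degree of freedom 1.72 to 91.92). On simulated data, 98 of 100 genes changed by 0.8 (log2) were recovered in fRIP. Counting error limits genes of few UMIs. Genes were matched to GENCODE vM21 on GRCm38 by versioned identifier (50604) or identifier alone (2670), and gene coordinates are given only for the former. Promoter sequence and its coordinates came from RefSeq on GRCm38.p6.

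The genes and lists were chosen with earlier results of these data known. Named genes are the extremes of each complex, enriched genes, the extreme differences, core subunits and paralogue sets, apart from an item that is not reported here. Alternatives were TMM scaling, library sizes without Gm26917 and Gm42418, DESeq2 1.42.0, other count filters, no block, no fold threshold, a gene-length trend, single replicates left out and, chosen after seeing the data, a GC trend.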

Additional observations from a re-analysis of the deposited data

Results flagged for a closer look

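In 11 of 116 groups of 4 log2 ratios of IP to input from single plates, 1 plate lay far from the other plates, where chance gives about 1 in 20 groups. In fRIP these were Ndufa9 at -1.0 in plate 4 (others -0.38 to -0.34), Cox7a1 at -2.28 in plate 4 (others -1.44 to -1.32), Sdhd at -1.42 in plate 4 (others -0.96 to -0.87), Uqcr11 at -2.34 in plate 4 (others -1.0 to -0.91), Atp5b at -0.99 in plate 4 (others -0.75 to -0.71) and Atp5a1 at -1.07 in plate 4 (others -0.71 to -0.66), each of them plate 4, the plate whose input stood apart. In UV-RIP they were Sdhc at -0.58 in plate 3 (others -0.39 to -0.37), Ndufaf4 at -0.94 in plate 4 (others -0.72 to -0.67), Atp5g2 at -0.25 in plate 3 (others -0.07 to -0.04), Ndufv1 at 0.16 in plate 4 (others -0.20 to -0.16) and Cox8a at -0.10 in plate 4 (others -0.49 to -0.44).

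The change from input to IP differed between the crosslinkers for 33 of 46 named genes tested, by the interaction test. The differences, fRIP minus UV-RIP on the log2 scale, were lower in fRIP for Cox7a1 (-1.15), Ndufaf3 (-1.02), Ndufb2 (-0.90), Ndufa4 (-0.90), Ndufa1 (-0.90), Uqcr11 (-0.87), Cox8a (-0.87), Cox7a2 (-0.81), Atp5a1 (-0.77), Atp5g3 (-0.77), Cox6a1 (-0.76), Atp5b (-0.76), Atp5g1 (-0.73) and Sdhd (-0.72). They were also lower for Uqcrfs1 (-0.70), Uqcrc2 (-0.66), Cyc1 (-0.66), Cox5a (-0.64), Ndufs8 (-0.56), Ndufa9 (-0.55), Ndufv1 (-0.52), Sdha (-0.51), Cox7b (-0.48), Uqcrb (-0.45), Ndufaf4 (-0.44), Cox5b (-0.43), Cox6b1 (-0.41) and Uqcrc1 (-0.41). They were higher in fRIP for Ndufs4 (0.39), Atp5s (0.40), Atp5l (0.43), Ndufaf2 (0.55) and Cox7b2 (0.61). Without fRIP plate 4 that of Ndufaf4 did not pass (-0.36, adjusted p = 0.0755), and the differences that moved by more than 1.5 times were -0.22 for Cox7b, -0.22 for Cox6b1, -0.28 for Cox5b, -0.47 for Cox7a2, -0.60 for Ndufb2 and -0.50 for Uqcr11. DESeq2 with total UMIs did not call those of Cox7b (adjusted p = 0.175), Ndufaf4 (0.132), Cox7b2 (0.135), Cox7a2 (0.0733), Atp5s (0.0656) and Uqcr11 (0.0505). With the length trend removed 10 did not pass, those of Cox5b (-0.12, adjusted p = 0.63), Ndufaf4 (-0.33, 0.16), Cox6b1 (-0.35, 0.0773), Ndufs8 (-0.34, 0.0832), Cox7b (-0.36, 0.141), Uqcrb (-0.27, 0.143), Cox7b2 (0.24, 0.52), Atp5s (0.33, 0.0693), Ndufaf2 (0.11, 0.496) and Ndufs4 (0.02, 0.944).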

How the results depend on the processing

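The count of depleted genes in UV-RIP, 26, depended on scaling. It was 13 with TMM scaling, 15 with DESeq2 median-of-ratios, 16 with library sizes without Gm26917 and Gm42418, 10 with the gene-length trend removed, 11 after taking out a GC trend (added once the data had been seen) and 71 without a fold threshold, and 23 to 27 with a replicate left out. The count in fRIP, 64, was 55 to 65 with a replicate left out. Genes that differed between the inputs, 31 past 1.5-fold, became 7 with the length trend removed and 19 without Gm26917 and Gm42418, and 14 to 43 with a replicate left out, the lowest without fRIP plate 4. Relative to all genes, the UV-RIP median was -0.43 for complex IV (-0.51 to -0.42 with a replicate left out) and -0.24 for complex V (-0.25 to -0.16). With the length trend removed the fRIP medians went from -0.64 to -0.32 for the assembly factors and from -1.10 to -0.71 for complex IV.

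Over the named genes, 26 of 2098 recomputed values changed direction with a call before or after, and these were in UV-RIP. Another 66 changed sign and passed neither before nor after, and over both kinds 69 were in UV-RIP, 10 in fRIP and 13 in the difference. With TMM scaling these were Uqcrc2 (0.005), Uqcrc1 (0.142), Atp5b (0.138), Sdha (0.058), Cyc1 (0.164) and Atp5a1 (0.163). With DESeq2 median-of-ratios they were Atp5b (0.129), Sdha (0.05) and Atp5a1 (0.155). With the length trend removed they were Uqcrc1 (0.14), Ndufs7 (0.192), Atp5b (0.163), Sdha (0.045), Cyc1 (0.246) and Atp5a1 (0.173). Without Gm26917 and Gm42418 they were Uqcrc1 (0.115), Atp5b (0.11), Sdha (0.03), Cyc1 (0.136) and Atp5a1 (0.135). With the GC trend removed they were Cox7b2 (0.102), Uqcrc2 (0.105), Cox5a (0.082), Atp5s (0.186), Sdha (0.053) and Ndufs4 (0.004). The cause was not tested. A further 110 values no longer passed, 51 newly passed and 1845 kept direction and side of the threshold.

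Without the replicate block 26 genes were depleted in UV-RIP, 64 in fRIP and 45 differed between the crosslinkers, against 57 with it, and 7 named results no longer passed. With the block, 27 genes differed between the inputs past 1.5-fold, against 31, and 59 by adjusted p alone, against 57. Genes under about 100 UMIs, such as Cox7a1, Cox7b2 and Ndufaf3, rest on few counts.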
